A study of Arabidopsis thaliana with 2 samples.

Results

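The 10 genes described here encode the plastid and peroxisome enzymes that turn linolenic acid into the reduced precursor of jasmonic acid in *Arabidopsis thaliana*. They were taken by name, for their place in the pathway, as 10 of the 33602 genes in the deposited table: the 13-lipoxygenases *LOX2* (AT3G45140), *LOX3* (AT1G17420), *LOX4* (AT1G72520) and *LOX6* (AT1G67560), the allene oxide synthase *AOS* (AT5G42650), the allene oxide cyclases *AOC1* (AT3G25760), *AOC2* (AT3G25770), *AOC3* (AT3G25780) and *AOC4* (AT1G13280), and the 12-oxophytodienoate reductase *OPR3* (AT2G06050). The study compared by RNA-seq an *Arabidopsis* line that carries *SsCBF1*, a CBF/DREB1 transcription factor gene of the wild tomato relative *Solanum lycopersicoides*, with its Col-0 parent. One group was *35S:SsCBF1-11*, the transgenic line 11 in the Col-0 background, in which the CaMV 35S promoter drives the transgene in most tissues. The other was wild-type Col-0. Each group was 1 library made from the pooled aerial parts of 20 plants, 4 weeks old, grown at 22 °C under 16 h of light and 8 h of darkness without stress, so that there was no replicate of either genotype and the transgenic group stood for a single line.

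Jasmonates are lipid hormones that plants make in response to wounding, insects and touch, and that stamens need for their development. In the plastid, 13-lipoxygenases add oxygen to linolenic acid, AOS turns the product into an unstable epoxide, and the cyclases close its ring to give 12-oxophytodienoic acid. That compound passes to the peroxisome, where OPR3 reduces it and beta-oxidation shortens it to jasmonic acid, and JAR1 then couples jasmonic acid to isoleucine to give the active hormone. Genes of the pathway are themselves induced by jasmonate in *Arabidopsis* leaves, and CBF factors bind the C-repeat (CRT), whose core is CCGAC.

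*AOC1*, *AOC2* and *AOC3* stand in a row of 7312 bases on the plus strand of chromosome 3 (TAIR10.1 annotation), with 1330 bases between *AOC1* (9403779 to 9405338) and *AOC2* (9406669 to 9408071) and 1088 bases between *AOC2* and *AOC3* (9409160 to 9411090). The 250 bases before the annotated start of each gene are shown for these neighbours, because 2 of the 3 were the members called higher in *35S:SsCBF1-11*, and for *AOS*. The windows are chr3:9403529-9403778 for *AOC1*, chr3:9406419-9406668 for *AOC2* and chr3:9408910-9409159 for *AOC3*, all on the plus strand, and chr5:17099596-17099845 on the minus strand for *AOS*. Each is written 5′ to 3′ along the gene's own strand and comes from the RefSeq TAIR10.1 genome. Capitals mark the CRT core CCGAC in *AOC3*, the G-box CACGTG in *AOS*, and the longest run that the *AOC1* and *AOC2* windows share.
AOC1: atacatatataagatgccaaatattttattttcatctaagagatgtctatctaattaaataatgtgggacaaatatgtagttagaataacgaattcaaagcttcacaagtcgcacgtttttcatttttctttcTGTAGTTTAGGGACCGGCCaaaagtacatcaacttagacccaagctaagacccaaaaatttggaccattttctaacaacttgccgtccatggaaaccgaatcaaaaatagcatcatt
AOC2: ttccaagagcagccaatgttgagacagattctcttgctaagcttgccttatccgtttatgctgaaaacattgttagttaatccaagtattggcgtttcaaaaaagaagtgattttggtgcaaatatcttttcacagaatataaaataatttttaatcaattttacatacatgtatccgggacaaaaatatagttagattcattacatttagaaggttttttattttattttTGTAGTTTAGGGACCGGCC
AOC3: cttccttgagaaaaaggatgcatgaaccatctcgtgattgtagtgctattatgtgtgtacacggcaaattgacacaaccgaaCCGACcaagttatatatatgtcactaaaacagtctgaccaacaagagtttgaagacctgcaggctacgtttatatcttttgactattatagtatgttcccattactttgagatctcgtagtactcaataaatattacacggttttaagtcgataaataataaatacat
AOS: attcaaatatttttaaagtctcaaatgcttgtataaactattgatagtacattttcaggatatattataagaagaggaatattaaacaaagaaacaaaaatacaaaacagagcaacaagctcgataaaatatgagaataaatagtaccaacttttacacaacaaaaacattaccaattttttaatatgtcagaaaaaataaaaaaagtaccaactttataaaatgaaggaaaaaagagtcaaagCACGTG

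Among the 10 members, *AOC3* was the one with CCGAC on either strand within 250 bases, 168 bases before its start on the plus strand. The same search found CCGAC in 11.97% of 27443 protein-coding genes. Within 1000 bases, 6 of the 10 members held the core, at 915 bases before the start in *LOX3*, 806 in *LOX4*, 615 in *LOX6*, 390 in *AOS*, 168 in *AOC3* and 948 in *AOC4*, against 37.4% of the protein-coding genes. *LOX2*, *AOC1*, *AOC2* and *OPR3* held none in that window. The 250 bases before *AOC4* run into the annotated gene AT1G13270, so its site at 948 bases may not lie in sequence between genes. Overlap of the 1000-base windows with other genes was not examined. Set beside the read ratios given below, *AOC3* and *AOS* held the core in 1000 bases and *AOC1*, *AOC2* and *LOX2* did not among the 5 members that passed the adjusted p, and 4 of the other 5 members held it. The G-box, a palindrome bound by MYC2 and many other factors, lay 6 bases before the start of *AOS* and in no other member within 1000 bases, against 6.49% of genes at 250 bases and 14.8% at 1000 bases. The run in capitals that *AOC1* and *AOC2* share is 19 bases long and begins 117 bases before the start of *AOC1* and 19 bases before that of *AOC2*. No other pair of cyclase genes shared more than 9 bases of these windows. A match to these letters is a description of the window and says nothing about binding.

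The deposited gene counts summed to 6669454 reads for *35S:SsCBF1-11* and 9120358 for Col-0, with reads on 20930 and 21703 genes. These sums cover reads counted on genes and are the library totals used below. The study reports a larger number of sequenced reads for each sample. The leaf genes *RBCS1A*, *RCA* and *LHCB1.1* were abundant in both, and all 3 passed the adjusted p with higher reads in *35S:SsCBF1-11*, at ratios of 1.15, 1.09 and 1.56 (1.535 to 1.59), the last of them between those of *AOS* and *LOX2* given below. Across the 22319 genes with at least 1 read, the exact binomial test (two-sided, on library totals, Benjamini-Hochberg adjusted) called 119 genes higher (0.533% of those tested) and 187 lower (0.838%) in *35S:SsCBF1-11*, where called means a fold above 2 together with an adjusted p under 0.001. DESeq2's size factors in place of the totals gave 136 higher and 141 lower. At the same adjusted p and any fold, 2.45% of the genes were higher and 3.21% lower. The test compares the reads of 2 libraries and not the genotypes, because the spread between plants and pools was not measured, and every interval below is an exact 95% interval of counting error only.

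Of the 10 synthesis genes, 2 were called higher in *35S:SsCBF1-11*, *AOC2* and *AOC3*, and 0 were called lower, against the 0.533% and 0.838% of all genes. Both are also among the genes that the study picked from these same libraries. A further 3 members, *LOX2*, *AOS* and *AOC1*, passed the adjusted p with a ratio under the fold threshold, so that 5 of 10 were higher at any fold, against 2.45% of all genes. With an assumed coefficient of variation between pools of 0.1 (edgeR's exact test), 1 of these 5, *AOC2*, still passed the adjusted p. As members have more reads than most genes, the 12481 genes with at least 81 reads, the number of the least covered member, are a closer background: 0.705% of them were called higher and 4.13% were higher at any fold. The members' median log2 ratio was 0.44, against -0.07 for the 18443 genes with at least 10 reads, and all 10 members were among those genes. Summed over the members, 6301 reads fell in *35S:SsCBF1-11* and 5605 in Col-0, the library with more counted reads. That is 944.8 and 614.6 RPM (reads scaled to the library total), a ratio of 1.54 (1.48 to 1.59). Most of these reads came from *LOX2* (3637 in *35S:SsCBF1-11* and 3000 in Col-0) and *AOS* (1470 and 1370), so the sum mainly reflects these genes.

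**Figure D1:**
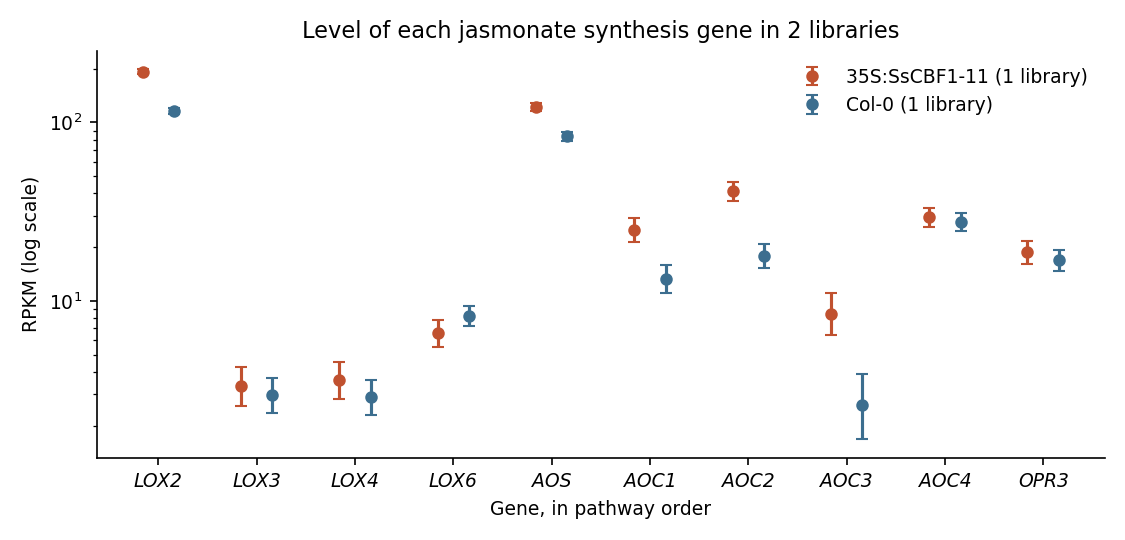
Level of each synthesis gene in RPKM (reads scaled to gene length and library total, log axis) in the 35S:SsCBF1-11 library and the Col-0 library, 1 point per library, with bars for the exact 95% counting interval. LOX2 and AOS stood highest in both libraries, at 192 and 122 RPKM in 35S:SsCBF1-11 against 116 and 83.4 in Col-0.

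The levels per length, in RPKM, spanned a wide range, as the plot of member levels shows. In *35S:SsCBF1-11* the order was *LOX2*, *AOS*, *AOC2*, *AOC4*, *AOC1*, *OPR3*, *AOC3*, *LOX6*, *LOX4* and *LOX3*, where *AOC4* and *AOC1*, *AOC1* and *OPR3*, *AOC3* and *LOX6*, and *LOX4* and *LOX3* had overlapping intervals. In Col-0 it was *LOX2*, *AOS*, *AOC4*, *AOC2*, *OPR3*, *AOC1*, *LOX6*, *LOX3*, *LOX4* and *AOC3*, with overlapping intervals from *AOC2* through *OPR3* to *AOC1*, and from *LOX3* through *LOX4* to *AOC3*. *AOC3* thus stood seventh in *35S:SsCBF1-11* and last in Col-0, and *AOC2* stood above *AOC4* in *35S:SsCBF1-11* and below it in Col-0.

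*LOX2* encodes the chloroplast lipoxygenase required for most of the jasmonate that leaves make soon after wounding, and lies on the plus strand of chromosome 3 from 16525245 to 16529352 in 7 exons. It had 3637 reads in *35S:SsCBF1-11* and 3000 in Col-0, or 192 RPKM (186 to 199) and 116 RPKM (112 to 120), which placed it 454th and 805th among all genes by RPKM. The ratio was 1.66 (1.58 to 1.74, log2 0.73), with an adjusted p of 3.47e-91 in the exact binomial test, and the interval lay wholly below the fold threshold of 2. Its ratio was above that of 98.6% of the genes with at least 100 reads.

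The other 13-lipoxygenases were scarce and none was called. *LOX3* and *LOX4*, which act together in the fertility of the stamen, had 66 and 73 reads in *35S:SsCBF1-11* against 80 and 80 in Col-0. Their ratios were 1.13 (0.802 to 1.58, adjusted p = 0.820, exact binomial test) for *LOX3* and 1.25 (0.896 to 1.74, adjusted p = 0.527) for *LOX4*. These intervals still hold a rise of more than 1.5 times, so the depth could not show a smaller difference. *LOX6*, known for the early jasmonate of wounded leaves away from the wound and of roots, was the one member with a ratio under 1. It had 129 reads in *35S:SsCBF1-11* and 220 in Col-0, or 6.61 and 8.24 RPKM, 1.25-fold lower (0.999 to 1.56) with an adjusted p of 0.239 in the exact binomial test. *LOX3*, *LOX4* and *LOX6* lie on chromosome 1 (5977323 to 5981521, 27308513 to 27312756 and 25319804 to 25324581, all on the plus strand).

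Within the 13-lipoxygenase reads, *LOX2* took 93.1% (92.3 to 93.9) in *35S:SsCBF1-11* and 88.8% (87.6 to 89.8) in Col-0, and *LOX6* took 3.30% (2.77 to 3.91) and 6.51% (5.70 to 7.39). The odds of a *LOX2* read over a *LOX6* read were 2.07 times as high (1.65 to 2.60) in *35S:SsCBF1-11* as in Col-0. For *LOX2* over *LOX3* the odds ratio was 1.47 (1.04 to 2.08), and for *LOX2* over *LOX4* it was 1.33 (0.951 to 1.86), an interval that includes 1. Such a ratio between members needs no scaling of the libraries. In all, 16 pairs of members were compared in this way and the intervals of 10 left out 1, with no adjustment for their number. They are not all possible pairs, so the count of 10 describes these pairs only.

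*AOS* encodes the cytochrome P450 that is the only allene oxide synthase of *Arabidopsis*, and is a single exon on chromosome 5, minus strand, between bases 17097564 and 17099595. It had 1470 reads in *35S:SsCBF1-11* and 1370 in Col-0, or 122 RPKM (116 to 129) and 83.4 RPKM (79.0 to 87.9). The ratio was 1.47 (1.36 to 1.58, log2 0.55), with an adjusted p of 2.53e-22 in the exact binomial test, and again the whole interval lay below 2. *LOX2* and *AOS* were close in ratio, with an odds ratio of 1.13 (1.03 to 1.24) for *LOX2* over *AOS*.

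The cyclases differed most among themselves. *AOC2* had 268 reads in *35S:SsCBF1-11* and 160 in Col-0, or 41.0 RPKM (36.2 to 46.2) and 17.9 RPKM (15.2 to 20.9), a ratio of 2.29 (1.88 to 2.80, log2 1.19) with an adjusted p of 2.82e-15 in the exact binomial test. *AOC3* had 57 and 24 reads, or 8.49 RPKM (6.43 to 11.0) in *35S:SsCBF1-11* and 2.61 RPKM (1.67 to 3.89) in Col-0. Its ratio of 3.25 (1.98 to 5.47, log2 1.68, adjusted p = 1.14e-05, exact binomial test) was the highest of the 10 members and, with 81 reads in all, the least precise. Both genes were thus called higher, although the lower ends of both intervals lay below the fold threshold.

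*AOC1*, the remaining gene of the row, had 167 reads in *35S:SsCBF1-11* and 121 in Col-0, or 25.1 and 13.3 RPKM. The ratio was 1.89 (1.48 to 2.41, log2 0.91, adjusted p = 2.89e-06, exact binomial test), short of the fold threshold. *AOC4*, on chromosome 1 from 4547388 to 4548894, had 246 reads in *35S:SsCBF1-11* and 318 in Col-0, or 29.3 and 27.7 RPKM, a ratio of 1.06 (0.892 to 1.25, adjusted p = 0.830). *AOC4* is the cyclase with the most reads in Col-0, and its interval leaves out both a rise of 1.5 times and a fall of that size.

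All 3 neighbours on chromosome 3 had higher ratios than *AOC4*. Together, *AOC1*, *AOC2* and *AOC3* had 492 reads in *35S:SsCBF1-11* and 305 in Col-0, a ratio of 2.21 (1.91 to 2.55). Against *AOC4*, the odds ratio was 3.06 (1.81 to 5.32) for *AOC3*, 2.16 (1.66 to 2.82) for *AOC2* and 1.78 (1.33 to 2.40) for *AOC1*. Among the 3 neighbours themselves, every interval included 1: 1.42 (0.828 to 2.49) for *AOC3* over *AOC2*, 1.72 (0.986 to 3.07) for *AOC3* over *AOC1* and 1.21 (0.884 to 1.67) for *AOC2* over *AOC1*. The order of the 3 ratios was therefore not settled at this depth.

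**Figure D2:**
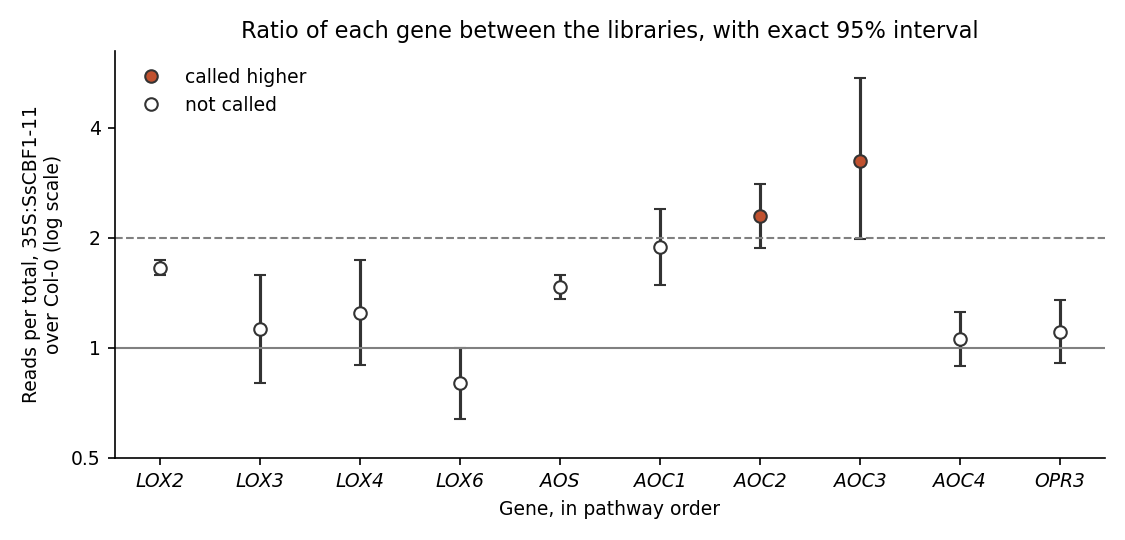
Ratio of RPM in 35S:SsCBF1-11 over Col-0 for each synthesis gene (log axis), ordered by step, with bars for the exact 95% counting interval, filled points for genes called higher, and a dashed line at the fold threshold of 2. AOC2 at 2.29 and AOC3 at 3.25 lay beyond the threshold, LOX2 at 1.66, AOS at 1.47 and AOC1 at 1.89 lay between 1 and the threshold with bars clear of 1, and the bars of the other 5 genes reached 1.

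As shares of all cyclase reads, *AOC4* made up 33.3% (29.9 to 36.9) in *35S:SsCBF1-11* and 51.0% (47.0 to 55.0) in Col-0. *AOC2* made up 36.3% (32.8 to 39.9) and 25.7% (22.3 to 29.3), *AOC1* 22.6% (19.7 to 25.8) and 19.4% (16.4 to 22.8), and *AOC3* 7.72% (5.90 to 9.89) and 3.85% (2.48 to 5.68), in each case *35S:SsCBF1-11* and then Col-0. These shares are of reads and take no account of gene length. Per length, *AOC2* stood above *AOC4* in *35S:SsCBF1-11* (36.2 to 46.2 against 25.8 to 33.2 RPKM) and below it in Col-0 (15.2 to 20.9 against 24.8 to 30.9 RPKM), with intervals that lay apart in both libraries.

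**Figure D3:**
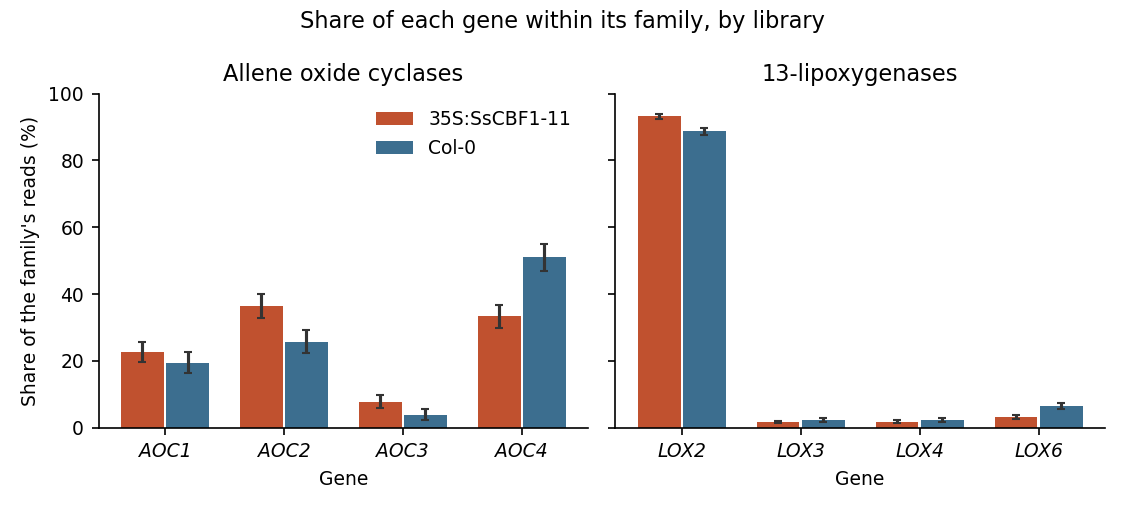
Share of reads (percent) that each gene took within the allene oxide cyclase family and within the 13-lipoxygenase family, in the 35S:SsCBF1-11 library and the Col-0 library, with bars for the exact 95% interval. AOC4 held 33.3% of the cyclase reads in 35S:SsCBF1-11 against 51.0% in Col-0, and LOX2 held 93.1% of the lipoxygenase reads against 88.8%.

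The cyclase genes are close copies, so how reads were shared between them bears on these values. The coding sequences were 89.9% identical between *AOC1* and *AOC2*, 81.2% between *AOC1* and *AOC3*, 80.8% between *AOC2* and *AOC3*, and 77.0% between *AOC3* and *AOC4*. A stretch of 60 coding bases is shown, with capitals where a gene differs from *AOC2*. It covers coding bases 341 to 400 of *AOC1*, 338 to 397 of *AOC2*, 353 to 412 of *AOC3* and 341 to 400 of *AOC4*, counted from the start codon.
AOC1: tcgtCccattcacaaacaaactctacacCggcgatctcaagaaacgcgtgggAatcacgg
AOC2: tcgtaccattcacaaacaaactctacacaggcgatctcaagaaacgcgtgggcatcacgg
AOC3: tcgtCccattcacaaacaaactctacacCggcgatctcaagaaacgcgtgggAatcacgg
AOC4: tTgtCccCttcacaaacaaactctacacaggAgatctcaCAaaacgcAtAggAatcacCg

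In this stretch, *AOC1* and *AOC3* each differ from *AOC2* at 3 bases and carry the same letters as each other, whereas *AOC4* differs at 10. The longest run that transcripts of *AOC1* and *AOC3* share exactly is 73 bases, that of *AOC2* and *AOC3* is 50 and that of *AOC1* and *AOC2* is 47. No pair of cyclase or lipoxygenase transcripts shares an exact stretch of 100 bases, the length of the study's reads. A read with mismatches could still be placed on the wrong neighbour, and the rule for such reads is not given in the sources used here, so that the split among *AOC1*, *AOC2* and *AOC3* is less certain than their sum. *LOX3* and *LOX4* were 79.7% identical in coding sequence, with a longest shared run of 24 bases, and no member overlaps another annotated gene.

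*OPR3* encodes the peroxisomal reductase of the pathway, whose loss leaves *Arabidopsis* male sterile, and occupies bases 2359114 to 2362375 of chromosome 2, minus strand. It had 188 reads in *35S:SsCBF1-11* and 232 in Col-0, or 18.7 RPKM (16.1 to 21.5) and 16.8 RPKM (14.7 to 19.2). The ratio of 1.11 (0.909 to 1.35, adjusted p = 0.668, exact binomial test) left out a rise of 1.5 times. Of the genes of earlier steps, *AOC2*, *LOX2* and *AOS* alone were compared with *OPR3* directly. Each had passed the adjusted p as higher on these same reads, so the odds ratios below are no independent support. The odds ratio over *OPR3* was 2.07 (1.56 to 2.75) for *AOC2*, 1.50 (1.22 to 1.83) for *LOX2* and 1.32 (1.07 to 1.64) for *AOS*. Not all genes of earlier steps had higher ratios than *OPR3*: *AOC4* (1.06) and *LOX6* (0.802) had lower ones. The intervals of *LOX3* and *LOX4* held the ratio of *OPR3*. Summed by step, the 13-lipoxygenases reached 206 RPKM in *35S:SsCBF1-11* and 130 RPKM in Col-0 (ratio of reads 1.58, 1.51 to 1.65), and the cyclases 104 and 61.5 RPKM (1.62, 1.45 to 1.81).

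The rest of the pathway was followed in 28 further genes, of which 26 had reads. Of the 28, 3 were called higher and 0 lower, against 0.533% and 0.838% of all tested genes. The median log2 ratio of the 22 with at least 10 reads was 0.17. Upstream of the lipoxygenases, 0 of 7 genes of substrate supply and lipases were called, where 6 had reads and 4 at least 10. Outside *FAD7* and *FAD8*, none had more than 45 reads in both libraries together, so only a large difference could have been called. *FAD7*, which desaturates plastid lipids to make linolenic acid, had 1889 and 2363 reads, a ratio of 1.09 (1.03 to 1.16), and *FAD8*, which does the same, had 584 and 743, again *35S:SsCBF1-11* and then Col-0. The anther phospholipase gene *DAD1* had 0 reads in both libraries, which allows up to 3 reads in each.

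Between OPR3 and jasmonic acid, 0 of 9 genes of transport and beta-oxidation were called and their summed reads had a ratio of 0.997 (0.956 to 1.04). *ACX1*, an acyl-CoA oxidase, had 869 reads in *35S:SsCBF1-11* and 935 in Col-0, a ratio of 1.27 (1.16 to 1.40, adjusted p = 1.21e-05, exact binomial test), and the thiolase gene *KAT2* had 933 and 1514, a ratio of 0.843 (0.776 to 0.915, adjusted p = 7.11e-04). Both differed by less than the fold threshold, and *KAT2* no longer passed the adjusted p with TMM (0.0270), DESeq2's size factors (0.0351) or the upper quartile (0.0108), whereas *ACX1* did. *JAR1*, which forms jasmonoyl-isoleucine, had 172 reads in *35S:SsCBF1-11* and 284 in Col-0 (0.828, 0.681 to 1.004), and *JMT*, which methylates jasmonic acid, had 56 and 79.

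The list of genes downstream of the hormone held 10 genes, 9 of them with reads. They are genes of hydroxylation, sulfation and conjugate cleavage and of the family of 2-oxoglutarate and Fe(II)-dependent oxygenases. Of the 10, 3 were called higher and 0 lower, against 0.533% and 0.838% of all tested genes. With an assumed coefficient of variation of 0.1, AT5G05600 alone of the 3 was still called. The oxygenase gene AT5G05600 had 242 reads in *35S:SsCBF1-11* and 58 in Col-0, a ratio of 5.71 (4.27 to 7.74, adjusted p = 6.14e-40, exact binomial test). *JRG21* (AT3G55970), an oxygenase of the same family named as a jasmonate-regulated gene, had 56 and 21 reads (3.65, 2.17 to 6.34), and *ILL6*, an amidohydrolase that cleaves hormone conjugates, had 84 and 43 (2.67, 1.83 to 3.95). *IAR3*, another amidohydrolase, had 311 reads in *35S:SsCBF1-11* and 229 in Col-0 (1.86, 1.56 to 2.21, adjusted p = 5.18e-11) and stayed under the fold threshold. The sulfotransferase gene *ST2A* had 17 and 5 reads (4.65, 1.65 to 16.1, adjusted p = 0.0182) and *CYP94B3*, a jasmonoyl-isoleucine hydroxylase, had 5 and 0, too few to call.

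**Figure D4:**
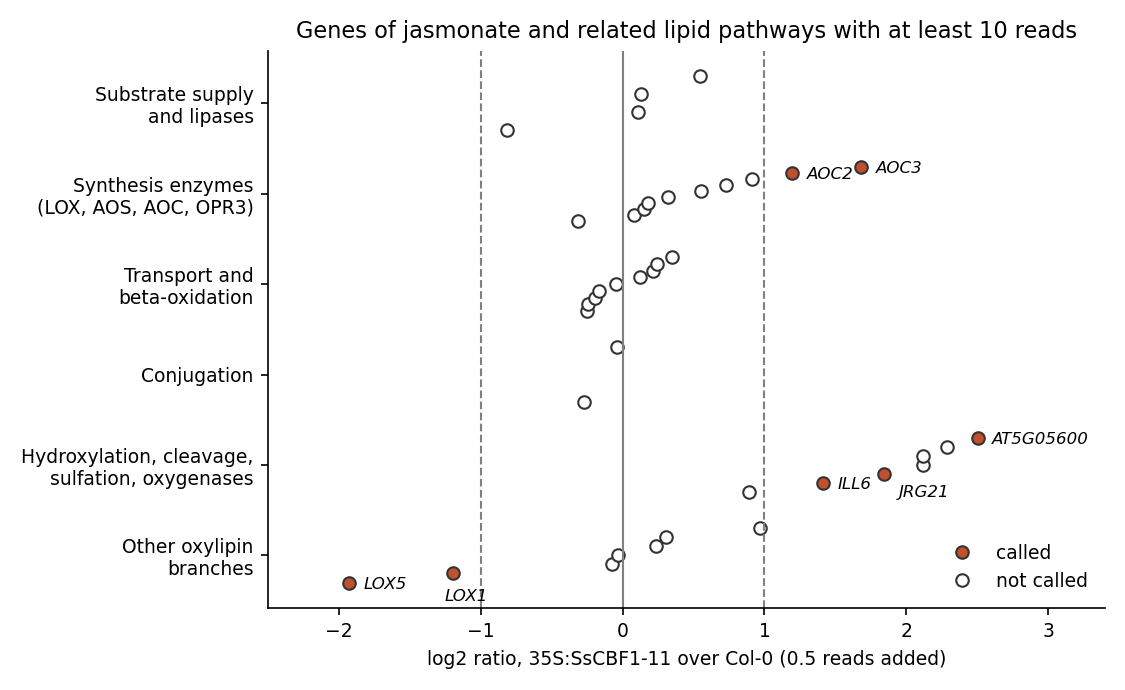
Log2 ratio of RPM in 35S:SsCBF1-11 over Col-0, with 0.5 reads added, for each gene with at least 10 reads in 6 groups of jasmonate and related lipid pathways, 1 point per gene, filled where called, with dashed lines at the fold threshold. The transport and beta-oxidation genes gathered around 0 with a median of -0.05, the synthesis genes had a median of 0.44 and reached 1.68 in AOC3, and AT5G05600 and LOX5 stood at the ends.

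Other fates of the same fatty acids gave a mixed picture. Of 7 genes of other oxylipin branches, 0 were called higher and 2 lower, against 0.533% and 0.838% of all tested genes. The 2 were the 9-lipoxygenases *LOX1* and *LOX5*, which oxygenate linolenic acid at another carbon and do not feed jasmonate. *LOX1* had 38 reads in *35S:SsCBF1-11* and 120 in Col-0, a ratio of 0.433 (0.292 to 0.628, adjusted p = 5.67e-05, exact binomial test), and *LOX5* had 14 and 75, a ratio of 0.255 (0.133 to 0.455, adjusted p = 3.99e-06). Neither call held where the coefficient of variation was set to 0.1 (edgeR's exact test, adjusted p = 0.0249 for *LOX1* and 0.00149 for *LOX5*). The hydroperoxide lyase gene *HPL1* had 185 reads in *35S:SsCBF1-11* and 129 in Col-0. Its ratio of 1.96 (1.56 to 2.47, adjusted p = 1.27e-07, exact binomial test) stayed just under the fold threshold. It passed that threshold with TMM, DESeq2's size factors and the upper quartile. The other reductases, *OPR1* with 186 and 261 reads and *OPR2* with 36 and 42, were not called. Of 11 genes of the jasmonate response, a list chosen with earlier results of these data known, 4 were called higher and 0 lower. The shares of all tested genes were again 0.533% and 0.838%. The repressor genes called were *JAZ1* with 92 reads in *35S:SsCBF1-11* and 44 in Col-0, *JAZ5* with 51 and 17 and *JAZ6* with 642 and 383. The defensin gene *PDF1.2a*, with 429 and 39, was the other. With TMM or DESeq2's size factors 6 were called, *MYC2* and *VSP2* in addition. With the coefficient of variation set to 0.1 the same 4 were called, at 0.2 *PDF1.2a* alone, and at 0.4 none. *COI1*, the receptor gene, had 262 and 310 reads and was not called, nor was *VSP1*, whose 484 and 822 reads gave the one ratio under 1 of the list (0.805, 0.718 to 0.902).

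Some markers of other tissues and states differed between the libraries along with these genes. The 11 flower markers had 16 reads in *35S:SsCBF1-11* and 418 in Col-0, and 5 of them were called lower, against 0.838% of all tested genes. These were *GRP17*, *GRP19*, *ATA7* and *ATA27* of the anther, each at 0 in *35S:SsCBF1-11*, and the petal and stamen identity gene *PI*, with 3 and 30 reads. The 7 anther genes of the list together had 0 reads against 334 in Col-0, with *MS1* at 0 in both. Floral stage and genotype cannot be told apart in these pools, nor can more cells of a type and more RNA per cell. Of the 5 root markers, *TIP2;3*, *PRP3* and *EXPA7* were at 0 in both libraries, *COBL9* had 0 and 2 reads, and *PYK10* had 513 and 515, a ratio of 1.36 (1.203 to 1.54, adjusted p = 2.17e-05, exact binomial test), higher in *35S:SsCBF1-11* below the fold threshold. The 6 touch-responsive genes, led by *TCH3* and *TCH2*, had 688 reads in *35S:SsCBF1-11* and 1245 in Col-0 (0.756, 0.688 to 0.830). Of these 6 genes, 4 had a ratio under 1 and 2 a ratio above 1, with a median log2 ratio of -0.45. The 8 clock genes had 5526 and 7806 (0.968, 0.935 to 1.002), most of them from *LHY* with 4339 and 6115 and *CCA1* with 977 and 1304, with 0 called in either list. Of the 7 clock genes with at least 10 reads, 6 had a ratio under 1, and their median log2 ratio was -0.38. The part of any of these in the values of the synthesis genes was not tested.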

How the data were processed

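The authors pooled 20 plants of each genotype, sequenced on an Illumina HiSeq instrument and deposited, for 33602 genes, the count of reads and the RPKM of each library in a single table. The submitters' processing notes name TAIR10 and CASAVA 1.7. The aligner, counting rule, strand setting and treatment of reads that match several genes were not given in the sources used here. Levels are the authors' deposited RPKM values, which equal the deposited count over the listed length and the library total (relative tolerance 1e-06). The deposited columns of fold, log2 and q-value hold the authors' own comparison and were not used, nor were their pathway and Gene Ontology lists.

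The members and gene lists were chosen with earlier results of these data known. With 1 library per genotype, counts were tested against the share of all counted reads in *35S:SsCBF1-11* (42.2%). The exact binomial test was two-sided, with Benjamini-Hochberg adjustment over the 22319 genes with at least 1 read. Calls needed a fold above 2, with 0.5 reads added, and an adjusted p under 0.001. Log2 ratios carry the same 0.5 reads, and other ratios carry none. Intervals are exact at 95%, Poisson for RPKM and Clopper-Pearson for ratios between the libraries and for shares of reads. Apart from these, a fixed bound of 3 reads was set for a count of 0, which is 0.450 RPM in *35S:SsCBF1-11* and 0.329 RPM in Col-0. PCR copies are not independent molecules, so the intervals and this bound cover counting error only. Odds ratios between members are exact conditional estimates. The rule named all 10 members and, of each other list, every called gene, or the 2 with the most reads where none was called. *DAD1*, *IAR3*, *ST2A*, *CYP94B3*, *HPL1*, *OPR1*, *OPR2*, *COI1*, *MYC2*, *VSP1*, *VSP2*, *LHCB1.1* and the markers at or near 0 were named in addition, after their values were seen.

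Positions, transcripts and sequences come from the RefSeq TAIR10.1 genome and annotation, which is newer than the annotation of the deposited table, so that listed lengths differ from its transcripts. Windows of 250 and 1000 bases before each gene's annotated start were searched for CCGAC and CACGTG on both strands. These starts need not be those of the counted models, of which only the length is listed. For *AOC3* the transcript has 1660 bases against a listed 1007. The motif distances therefore hold for this annotation. These motifs do not overlap each other in the members. The stretch of cyclase sequence was taken from an alignment of the cyclase coding sequences with mafft 7.526. Percent identities come from pairwise global alignments with Biopython 1.88 and are over the aligned length, gaps included.

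The alternatives were DESeq2's size factors, edgeR's TMM, the upper quartile, totals without the 10 most abundant genes, 1 read added, a minimum of 10 reads, an adjusted p under 0.05 with no fold threshold, and the exact test of edgeR, with the coefficient of variation set to 0.1, 0.2 or 0.4. The procedure was tested on simulated data that held counting error alone, so that test could not check the calls against a spread between pools. The scripts ran in R 4.3.3 (DESeq2 1.42.0, edgeR 4.0.16) and Python 3.11.15 (scipy 1.17.1, numpy 2.4.6, matplotlib 3.10.9, pandas 2.3.3).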

Additional observations from a re-analysis of the deposited data

How the results depend on the processing

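None of the 10 synthesis genes changed the sign of its log2 ratio under the 4 other scalings, and *AOC2* and *AOC3* were the members called higher under each of them, with a minimum of 10 reads and with 1 read added. The median log2 ratio of the members was 0.50 with TMM and 0.51 with DESeq2's size factors, in place of 0.44, where these scalings moved all genes by 0.07. The share of higher calls among all calls was 38.9%, against 49.1% with DESeq2's size factors. An adjusted p under 0.05 with no fold threshold called 1005 genes higher and 1603 lower, and 5 members higher (*AOC1*, *AOC2*, *AOC3*, *AOS* and *LOX2*). The calls rested on counting error alone. With edgeR's exact test and a coefficient of variation between pools set to 0.1, 64 genes were higher and 82 lower, with 1 member, *AOC2* (adjusted p = 3.85e-04). *AOC3* then kept its log2 ratio of 1.68 with an adjusted p of 0.00418, and *LOX2*, *AOS* and *AOC1*, below the fold threshold throughout, had adjusted p values of 0.0315, 0.227 and 0.0406. Of the other lists, AT5G05600, *JAZ1*, *JAZ5*, *JAZ6* and *PDF1.2a* were still called at 0.1, while *JRG21* (0.00110), *ILL6* (0.00397), *LOX1* and *LOX5* were not. Of these genes, AT5G05600 and *PDF1.2a* alone were called at 0.2, and none at 0.4. At 0.2, 18 genes were higher and 21 lower, with 0 members: *AOC2* had a log2 ratio of 1.19 with an adjusted p of 0.581, and *AOC3* 1.68 with 0.293. At 0.4, 2 were higher and 0 lower, with 0 members, and the adjusted p of *AOC2* (log2 1.19) and of *AOC3* (log2 1.68) was 1. No paired analysis was possible because each genotype has 1 library, and for the same reason no library could be left out. The spread between pools was not measured, so these data do not say which coefficient applies. The lack of replicates limits all 10 members, and the depth adds to it for *LOX3*, *LOX4* and *AOC3*, with at most 80 reads per library.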
